A study of Mus musculus with 2 samples.

Results

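The 8 genes described here encode the inducible nitric oxide synthase of mouse macrophages, the supply of its substrate arginine and the making of its cofactor tetrahydrobiopterin. They were chosen by name, as Nos2 (the synthase), Slc7a2 (arginine uptake), Ass1 and Asl (arginine remade from citrulline), Gch1, Pts and Spr (tetrahydrobiopterin made from GTP) and Qdpr (tetrahydrobiopterin regenerated). All 8 were among the 51084 gene identifiers that the count tables of both libraries shared, and all 8 were among the 12779 genes that reached at least 1 CPM (a count per 1000000 counts of the library) in a library. Nos2 and Ass1 reached that level in CANDI470 cells but not in PBS cells, so they entered only through the library in which they were high.

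The cells were bone-marrow-derived macrophages, which are grown out of bone marrow in culture, from mice whose genotype is given as C57BL/6J. The CANDI470 group received CANDI470, an agent known here by its code name, at 1 mg/mL on day 7 of differentiation, and RNA was taken 12 hours later. The control group is labelled as treated with PBS, and its culture day and time of harvest are not given in the sources used here. Each group held 1 library of polyadenylated RNA, read in pairs of 150 bases, and neither the age and sex of the mice nor the number pooled is given in the sources used here. Cultures given the empty form of the agent were not analysed here, so a response to CANDI470 and a response to its carrier cannot be told apart.

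Nitric oxide synthases oxidise arginine to nitric oxide and citrulline, and they need tetrahydrobiopterin to do so. In mouse macrophages the inducible synthase is made after exposure to microbial products and interferons, and the rate of nitric oxide release then depends on imported arginine, on arginine rebuilt from citrulline and on the cofactor. GTP cyclohydrolase, encoded by Gch1, is the rate-limiting step of cofactor synthesis, and the product is oxidised in use and reduced again.

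The genes on shared identifiers held 41398584 counts in the CANDI470 library and 28305071 counts in the PBS library. CPM values were scaled by TMM factors of 0.782 for CANDI470 and 1.28 for PBS, and a difference is log2(CPM + 1) in CANDI470 minus PBS. With 1 labelled library in a group there was no test and no replicate check, since a second control column in the deposited control tables has no labelled sample here and was not used. "Higher" and "lower" follow a rule of size of at least 2-fold, and the 95% intervals are exact and cover counting error only. The count tables gave different gene coordinates, since 98.3% of the identifiers found in GENCODE M21 had its start and end in the PBS table and 2.83% did in the CANDI470 table, while 11593 of the 12779 genes (90.7%) had the same length in both. Treatment cannot be told apart from how each library was made and counted. Of the 8 genes, 7 had the same length in both tables, and Nos2 had 4439 bases in the CANDI470 table and 4412 in the PBS table.

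Macrophage markers were abundant in both libraries. The 7 listed genes summed to 11783 CPM in CANDI470 cells and 19737 CPM in PBS cells, with single genes from 231 to 7274 CPM in CANDI470 cells and from 81.3 to 13837 CPM in PBS cells, the highest being Lyz2 in both. By the 2-fold rule on the log2 scale, Mertk (2.52) and Fcgr1 (2.55) of the 7 were higher in CANDI470 and Csf1r (-2.24) was lower. Of all 12779 genes, 25.7% were higher and 23.6% lower, and the counts of the other markers below stand beside these shares. With library totals 3 were lower, beside 40.2% of all genes. Csf1r had 5774 bases in the CANDI470 table and 4885 in the PBS table. Among genes of the same length in both tables, 2 of 6 markers were higher and none lower, beside 25.6% and 23.9% of all such genes. Summed markers of each other cell type listed were higher in the CANDI470 library. Neutrophil genes summed to 280 CPM in CANDI470 cells and 5.85 CPM in PBS cells, and all 5 of the 8 that reached 1 CPM were higher, although Elane had 2 counts in CANDI470 and 10 in PBS, and Mpo 9 in CANDI470 and 12 in PBS. Dendritic cell genes summed to 569 CPM in CANDI470 cells and 7.21 CPM in PBS cells, with 3 of 4 higher and Ccr7 holding 433 CPM of the CANDI470 sum. Mast cell and basophil genes summed to 36.1 CPM in CANDI470 cells and 0.497 CPM in PBS cells, with 4 of 4 higher. Endothelial genes summed to 172 CPM in CANDI470 cells and 13.3 CPM in PBS cells, with 3 of 3 higher, and fibroblast genes to 6.92 CPM in CANDI470 cells and 0.0276 CPM in PBS cells, with 3 of 4 higher and Pdgfra at 0 counts in both. T and NK cell genes summed to 27.4 CPM in CANDI470 cells and 0.304 CPM in PBS cells, with 1 of 4 higher, Gzmb, which held 26.1 CPM of the CANDI470 sum, and Ncr1 at 0 counts in both, and B cell genes to 0.618 CPM in CANDI470 cells and 0.138 CPM in PBS cells, with none of 3 reaching 1 CPM. Camp, Ltf, Zbtb46, Ccr7, Cdh5, Gzmb and all the mast cell, basophil and fibroblast genes counted were below 1 CPM in PBS, so they entered only through CANDI470. With a pseudocount of 5 CPM, none of 3 fibroblast, 3 of 4 mast cell and basophil and 2 of 3 endothelial genes were higher. In that setting 18.4% of all genes were higher. The neutrophil, dendritic cell and T and NK cell counts stayed the same. The part of these cell types in the results was not tested, and in bulk RNA fewer cells of a type and less RNA per cell cannot be told apart.

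The synthase, its arginine transporter, the first enzyme of the citrulline route and the first of cofactor synthesis were higher in CANDI470 cells, while the later cofactor genes were lower. Of the 8 genes, 4 were at least 2-fold higher (Nos2, Slc7a2, Ass1 and Gch1), against 25.7% of all 12779 genes, and 3 were at least 2-fold lower (Spr, Qdpr and Pts), against 23.6% of all genes. Asl was within 2-fold. With CPM scaled to library totals alone, without TMM factors, 16.2% of 12827 genes were higher and 40.2% lower, 4 of the 8 were still higher, and Asl joined the lower ones. The median difference of the 8 was 0.72 on the log2 scale, beside -0.01 for all genes, and with library totals it was 0.028 beside -0.69. Among genes of the same length in both tables, which leaves out Nos2, the median of the other 7 was -0.71 beside -0.02 for all genes, so the sign of this median rests on 1 member.

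**Figure D1:**
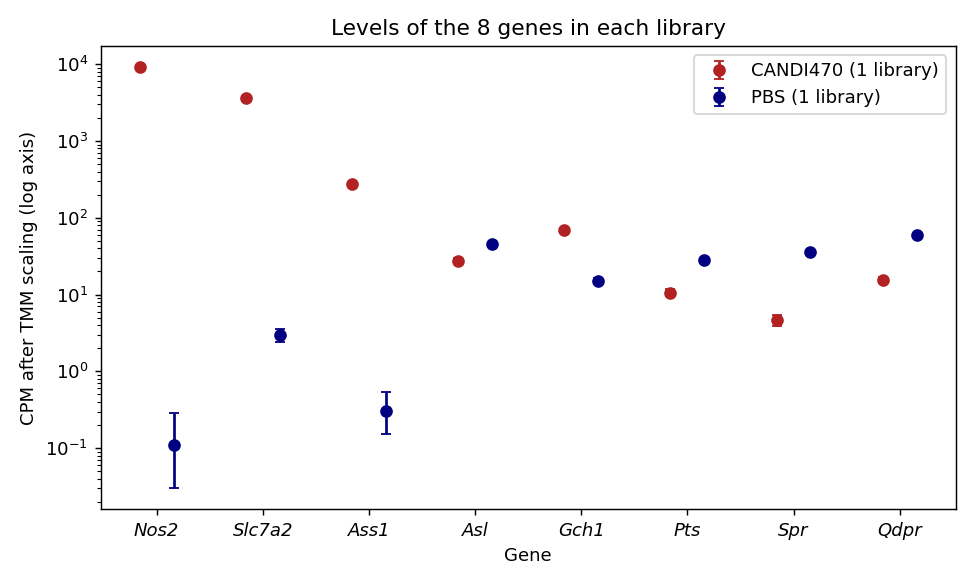
CPM after TMM scaling of each gene, on a log axis, in the CANDI470 library (red) and the PBS library (dark blue), with 95% exact Poisson intervals. Nos2 stands at 9180 CPM in CANDI470 and 0.110 CPM in PBS, while Asl, Pts, Spr and Qdpr lie lower in CANDI470 than in PBS.

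Nos2 (ENSMUSG00000020826; GRCm38 chromosome 11, 78920787 to 78960254, plus strand) encodes the inducible synthase. It had 297040 counts in CANDI470 cells and 4 counts in PBS cells, which is 9180 CPM (9147 to 9213) in CANDI470 and 0.110 CPM (0.0301 to 0.283) in PBS. It was among the most abundant genes of one library and close to undetected in the other. The difference was 13.01 on the log2(CPM + 1) scale, the largest of the 12779 genes, and the ratio of the scaled counts was 83117 with an interval of 32462 to 305056. Because the 4 counts of the PBS library set the lower end, that interval is wide. By CPM Nos2 ranked 9 of 12779 in CANDI470 and 12246 in PBS, and it took 0.718% of all counts on shared identifiers in CANDI470.

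The 3 genes whose pair of log2(CPM + 1) values lay nearest to that of Nos2, by Euclidean distance over these 2 libraries, were Acod1, Ptgs2 and Iigp1. Acod1, which encodes the enzyme that makes itaconate, had 4885 CPM in CANDI470 and 1.27 CPM in PBS, at a distance of 1.38. Ptgs2, the inducible cyclooxygenase, had 4836 CPM in CANDI470 and 1.99 CPM in PBS, at a distance of 1.70. Iigp1, an immunity-related GTPase, had 2715 CPM in CANDI470 and 1.68 CPM in PBS, at a distance of 2.17. Slc7a2 came next at 2.29 and Arg1 after it at 2.37.

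Slc7a2 (ENSMUSG00000031596; GRCm38 chromosome 8, 40862396 to 40922308, plus strand) encodes a cationic amino acid transporter that carries arginine into macrophages. It had 115878 counts in CANDI470 cells and 108 in PBS cells, or 3581 CPM (3561 to 3602) in CANDI470 and 2.98 CPM (2.45 to 3.60) in PBS. The difference of 9.81 was the eighth largest of all genes, with a ratio of 1201 (995 to 1464). Unlike Nos2, the transporter was clearly detected in the PBS library, where Slc7a2 had 27.0 counts for each count of Nos2 (10.2 to 101). In CANDI470 that ratio was 0.390 (0.387 to 0.393), where the synthase had more counts than its transporter.

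Ass1 (ENSMUSG00000076441; GRCm38 chromosome 2, 31470207 to 31520672, plus strand) encodes argininosuccinate synthase, which joins citrulline to aspartate. It had 8951 counts in CANDI470 cells and 11 in PBS cells, or 277 CPM (271 to 282) in CANDI470 and 0.304 CPM (0.152 to 0.543) in PBS. The difference was 7.73, rank 46 of all genes, and the ratio was 911 (509 to 1825). Asl (ENSMUSG00000025533; chromosome 5, 130011258 to 130029247, minus strand) encodes argininosuccinate lyase, which splits the product of Ass1 into arginine and fumarate. It had 899 counts in CANDI470 cells and 1646 in PBS cells, or 27.8 CPM (26.0 to 29.7) in CANDI470 and 45.5 CPM (43.3 to 47.7) in PBS. The counting intervals of Asl did not overlap, yet at a difference of -0.69, or 1.64-fold lower (1.51 to 1.78), it stayed within the 2-fold rule, and library totals put it at -1.38. These neighbouring steps of the citrulline route therefore stood in reversed order of abundance, with 9.96 counts of Ass1 for each count of Asl (9.30 to 10.7) in CANDI470 and 0.00668 (0.00333 to 0.0120) in PBS, a ratio within each library that no scaling between libraries can move.

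**Figure D2:**
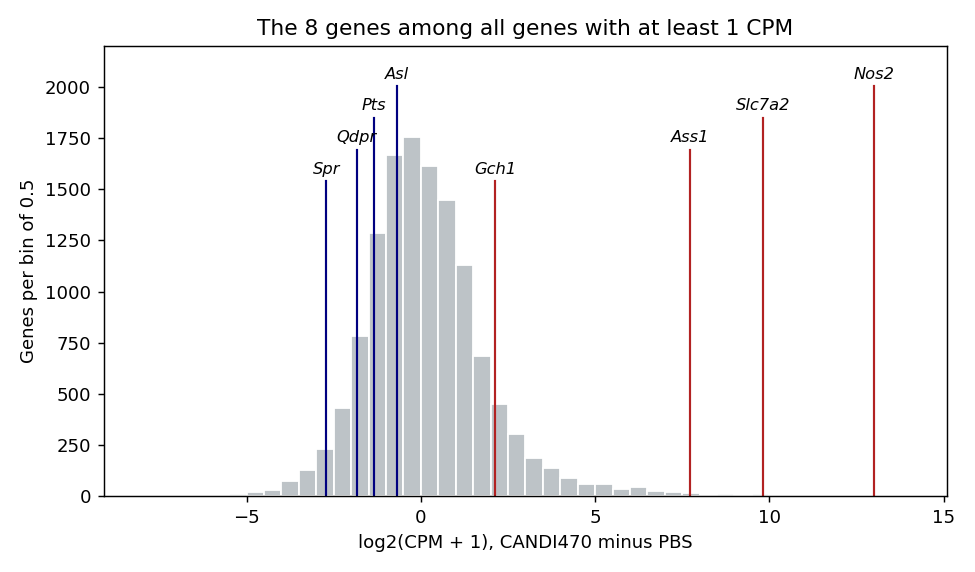
Number of genes in each bin of 0.5 of the difference in log2(CPM + 1), CANDI470 minus PBS, over the 12779 genes, with a vertical line for each of the 8 genes. Nos2 at 13.01, Slc7a2 at 9.81 and Ass1 at 7.73 lie in the sparse right tail, while Asl, Pts, Qdpr and Spr lie left of 0.

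Cofactor synthesis starts with Gch1, and its sequence upstream can be set beside those of Pts and Spr, the genes of the following steps that went the other way. RefSeq promoter windows of GRCm38.p6, from 250 bases before to 50 after the start site, were matched by symbol for 5 of the 8 genes (Ass1, Gch1, Pts, Spr and Qdpr). The 3 windows of the synthesis genes follow, 5′ to 3′ on the minus strand that each gene lies on, at chr14:47189364-47189663 for Gch1, chr9:50528607-50528906 for Pts and chr6:85137715-85138014 for Spr, with motif matches in capitals.
Gch1: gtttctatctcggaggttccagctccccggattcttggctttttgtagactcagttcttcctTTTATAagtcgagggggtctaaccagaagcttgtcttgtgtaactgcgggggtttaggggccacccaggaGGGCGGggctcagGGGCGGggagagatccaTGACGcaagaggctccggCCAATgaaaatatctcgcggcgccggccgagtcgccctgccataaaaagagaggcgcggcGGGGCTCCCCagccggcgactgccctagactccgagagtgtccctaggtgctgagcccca
Pts: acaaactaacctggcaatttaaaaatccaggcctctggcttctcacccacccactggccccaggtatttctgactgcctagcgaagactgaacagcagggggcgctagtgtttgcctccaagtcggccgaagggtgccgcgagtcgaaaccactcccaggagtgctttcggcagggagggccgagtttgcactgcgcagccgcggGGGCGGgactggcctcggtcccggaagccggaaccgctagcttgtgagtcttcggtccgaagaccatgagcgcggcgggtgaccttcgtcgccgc
Spr: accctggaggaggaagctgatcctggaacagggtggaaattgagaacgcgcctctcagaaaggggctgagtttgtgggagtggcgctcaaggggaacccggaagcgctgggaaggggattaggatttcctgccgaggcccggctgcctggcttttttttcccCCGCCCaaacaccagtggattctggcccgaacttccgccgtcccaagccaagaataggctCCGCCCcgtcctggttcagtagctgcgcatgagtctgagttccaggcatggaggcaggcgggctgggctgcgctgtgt

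Both strands were searched for the TATA box TATAAA, the CCAAT box CCAAT, the GC box GGGCGG, the cyclic AMP element core TGACG, the gamma-activated sequence TTCNNNGAA, the interferon-stimulated response element core GAAANNGAA, the hypoxia response element core ACGTG and the NF-kB motif. The Gch1 window held 2 GC boxes from -118 and -105, a cyclic AMP core from -88, a CCAAT box from -70 and an NF-kB match from -10 to -1, counted from 0 at the start site, plus a TATA box match on the opposite strand from -188. The Pts window held 1 GC box from -45, and the Spr window held 2 GC boxes on the opposite strand from -88 and -28. The matches printed for these 3 genes did not overlap each other. Of all 32851 windows of this length, 35.7% held a GC box, 37.4% a CCAAT box, 20.8% the cyclic AMP core, 13.6% a TATA box and 4.51% an NF-kB match. The gamma-activated sequence (8.30% of all windows) and the interferon-stimulated core (8.56%) had no match in any of the 5 windows, which says only that these letters are not there. Ass1 held 1 GC box and the palindrome CACGTG, which matches the hypoxia core on both strands (19.6% of all windows hold the core). Qdpr held 2 CCAAT boxes and 3 GC boxes. The motifs were chosen with the expression values known, and a match is a description of letters, not of a bound site.

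Gch1 (ENSMUSG00000037580; GRCm38 chromosome 14, 47153895 to 47189413, minus strand) encodes GTP cyclohydrolase. It had 2257 counts in CANDI470 cells and 552 in PBS cells, or 69.8 CPM (66.9 to 72.7) in CANDI470 and 15.2 CPM (14.0 to 16.6) in PBS. The first cofactor gene was thus expressed in both libraries and higher in CANDI470, by 2.12 on the log2 scale or 4.58-fold (4.17 to 5.03), a smaller difference than those of Nos2, Slc7a2 and Ass1. The strand setting of the counting is not given in the sources used here, and a pseudogene model on the opposite strand within Gch1, Gm49134, had 20 counts in CANDI470 and 0 in PBS.

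Pts (ENSMUSG00000032067; GRCm38 chromosome 9, 50521617 to 50528724, minus strand) encodes 6-pyruvoyltetrahydropterin synthase, the step after Gch1. It had 344 counts in CANDI470 cells and 1036 in PBS cells, or 10.6 CPM (9.54 to 11.8) in CANDI470 and 28.6 CPM (26.9 to 30.4) in PBS. Pts was 2.69-fold lower (2.38 to 3.05), a difference of -1.35. Spr (ENSMUSG00000033735; chromosome 6, 85130176 to 85137766, minus strand) encodes sepiapterin reductase, the last step of synthesis. It had 149 counts in CANDI470 cells and 1296 in PBS cells, or 4.60 CPM (3.90 to 5.41) in CANDI470 and 35.8 CPM (33.9 to 37.8) in PBS. This was the lowest of the 8 differences at -2.71, or 7.77-fold lower (6.55 to 9.27), and 390 of the 12779 genes counted from the lowest end. The unprocessed copy Spr-ps1 had 0 counts in CANDI470 and 1 in PBS.

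Qdpr (ENSMUSG00000015806; GRCm38 chromosome 5, 45434021 to 45450236, minus strand) encodes dihydropteridine reductase, which returns the oxidised cofactor to tetrahydrobiopterin. It had 507 counts in CANDI470 cells and 2132 in PBS cells, or 15.7 CPM (14.3 to 17.1) in CANDI470 and 58.9 CPM (56.4 to 61.4) in PBS. Qdpr was 3.76-fold lower (3.41 to 4.15), a difference of -1.84. It held the most counts of the 8 in PBS and fewer than Gch1 in CANDI470.

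Ratios of counts within a library show the same reversal without any scaling between libraries. Gch1 had 6.56 counts per count of Pts (5.85 to 7.37) in CANDI470 and 0.533 (0.480 to 0.591) in PBS. Gch1 per Spr was 15.1 (12.8 to 18.0) in CANDI470 and 0.426 (0.385 to 0.471) in PBS. Gch1 per Qdpr was 4.45 (4.04 to 4.91) in CANDI470 and 0.259 (0.235 to 0.284) in PBS. In each pair Gch1 had more counts than the later gene in CANDI470 and fewer in PBS. Per base of gene model, the ratios in CANDI470 were 6.40 for Pts, 8.59 for Spr and 1.27 for Qdpr. In PBS they were 0.520 for Pts, 0.242 for Spr and 0.0741 for Qdpr. The later genes also shifted among themselves, since Pts per Spr was 2.31 (1.90 to 2.82) in CANDI470 and 0.799 (0.736 to 0.868) in PBS. Such ratios can still carry differences in how the libraries were made and counted.

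**Figure D3:**
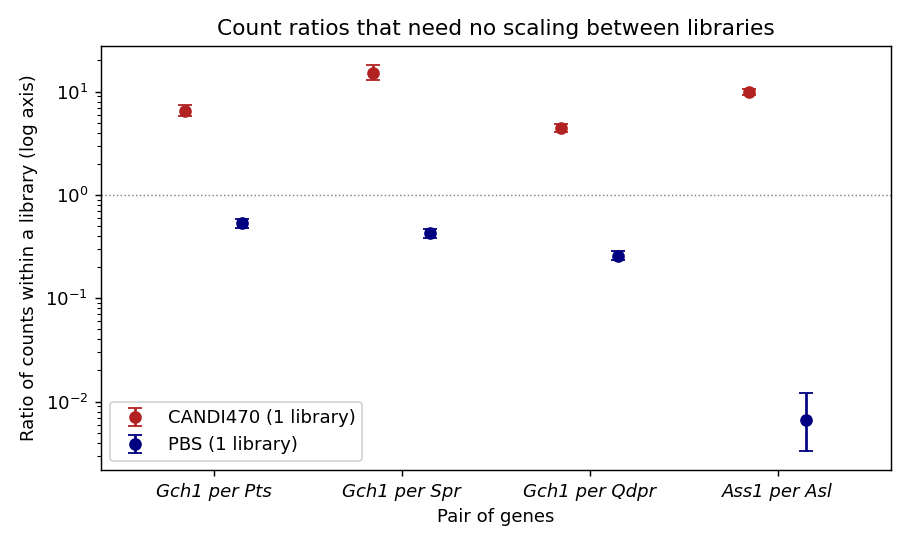
Counts of one gene per count of another within the same library, on a log axis, for CANDI470 (red) and PBS (dark blue), with 95% exact intervals and a dotted line at equal counts. All 4 ratios, Gch1 per Pts, Spr and Qdpr and Ass1 per Asl, lie above 1 in CANDI470 and below 1 in PBS.

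Per kilobase of gene model, Nos2, Slc7a2 and Ass1 had the 3 highest levels of the 8 in CANDI470 and the 3 lowest in PBS, while Qdpr lay above Asl, Pts and Spr in both libraries. In CANDI470 cells Nos2 had 2068 CPM per kilobase, followed by Slc7a2 at 392, Ass1 at 115, Gch1 at 11.2, Qdpr at 8.76, Asl at 5.75, Pts at 1.74 and Spr at 1.30 CPM per kilobase. No neighbours in that order had overlapping counting intervals. In PBS cells Qdpr had 32.9 CPM per kilobase, followed by Spr at 10.1, Asl at 9.41, Pts at 4.69, Gch1 at 2.44, Slc7a2 at 0.326, Ass1 at 0.126 and Nos2 at 0.0250 CPM per kilobase. There the intervals of Spr and Asl overlapped, as did those of Ass1 and Nos2. These lengths are those of the gene models, not of the transcripts the cells used.

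Seen as shares, the members' summed counts were 426025 in CANDI470 cells and 6785 in PBS cells. Nos2 made up 69.7% of them (69.6 to 69.9) in CANDI470 and 0.0590% (0.0161 to 0.151) in PBS, by exact Clopper-Pearson intervals. Slc7a2 made up 27.2% in CANDI470 and 1.59% in PBS, and Ass1 2.10% in CANDI470 and 0.162% in PBS. Qdpr made up 0.119% in CANDI470 and 31.4% in PBS, Asl 0.211% in CANDI470 and 24.3% in PBS, and Spr 0.0350% in CANDI470 and 19.1% in PBS. In PBS cells the set was thus mostly cofactor and lyase transcripts, and in CANDI470 cells mostly the synthase and its transporter.

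The authors' deposited table of log2 CPM gave the same directions for all 8 genes. The title line inside each library's log2 table names the other group, but its column name is that of the library, and its values equal that library's own counts after scaling. In the authors' deposited table Nos2 stood at 13.40 in CANDI470 and 0.17 in PBS, Ass1 at 8.36 in CANDI470 and 0.43 in PBS, and Gch1 at 6.38 in CANDI470 and 4.22 in PBS. For Spr the authors' deposited table gave 2.69 in CANDI470 and 5.40 in PBS, and for Asl 5.08 in CANDI470 and 5.74 in PBS.

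**Figure D4:**
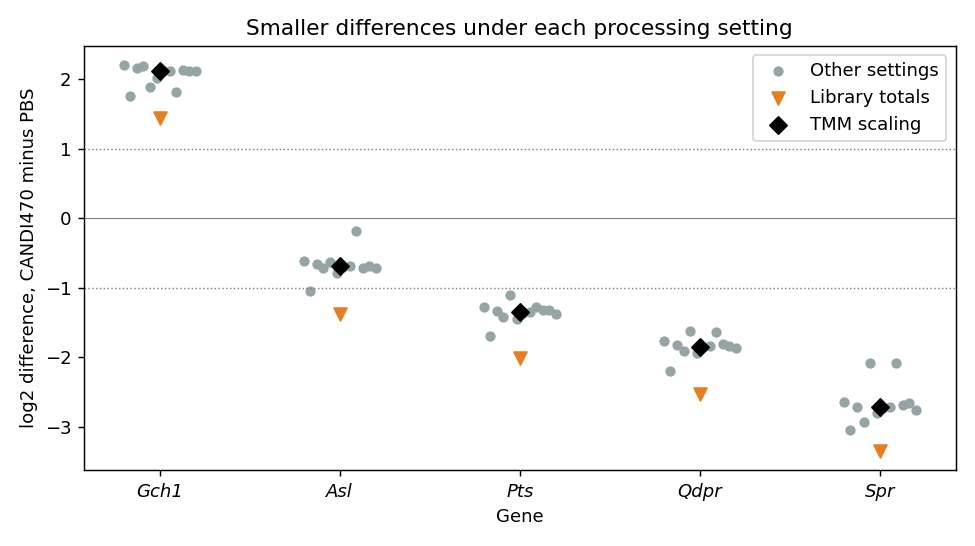
Difference of Gch1, Asl, Pts, Qdpr and Spr on the log2 scale, CANDI470 minus PBS, with TMM scaling (black diamonds), with library totals (orange triangles) and under the other settings (grey points), with dotted lines at 2-fold. Gch1 ranges from 1.44 to 2.20 and Spr from -3.35 to -2.08, and Asl passes the lower line under 2 settings.

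Around these 8 genes, 63 others reported here were listed by role, and 50 of them reached 1 CPM. Of the 50, 22 passed the rule as higher and 12 as lower, which is 44.0% and 24.0%, beside 25.7% and 23.6% of all genes. Among the higher ones, Arg1, Arg2, Pde5a, Ifnb1 and Ifng were below 1 CPM in PBS, so they entered only through CANDI470. Agmo and Prkg1, both within 2-fold, entered only through PBS. With library totals 18 of the 50 were higher and 17 lower, beside 16.2% and 40.2% of all genes. The counts of the single lists below stand beside the same shares.

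Of the 6 other genes reported here that make, recycle, control or use tetrahydrobiopterin, 4 reached 1 CPM, of which 2 were lower and 2 within 2-fold, with a median difference of -1.25 beside -0.01 for all genes. Pcbd2, a pterin dehydratase that acts in cofactor recycling, had 1.42 CPM in CANDI470 and 17.3 CPM in PBS, a difference of -2.92. Akr1b3, an aldose reductase that can take part in an alternative route to the cofactor, had 38.9 CPM in CANDI470 and 133 CPM in PBS, a difference of -1.75. Agmo, an ether lipid oxidase that uses the cofactor, differed by -0.74 and so stayed within 2-fold, but by -1.10 with library totals, -1.35 with a pseudocount of 0.1 CPM and -1.34 with GC content and length trends removed. Cbr1, a carbonyl reductase, differed by -0.21 (0.15 with GC content and length trends removed). Gchfr, which encodes the feedback regulator of GTP cyclohydrolase, had 0 counts in CANDI470 and 1 in PBS, and Pcbd1 had 1 in CANDI470 and 2 in PBS.

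Genes for other transport and use of arginine had a median difference of 1.63. Of the 9 of 11 that reached 1 CPM, 5 were higher and 1 lower. With library totals 4 were higher and 2 lower, beside 16.2% and 40.2% of all genes. Arg1, the arginase that turns arginine into ornithine and so uses the substrate of Nos2, had 57356 counts in CANDI470 and 6 in PBS, or 1773 CPM in CANDI470 and 0.166 CPM in PBS, a difference of 10.57. Arg2, the mitochondrial arginase, had 50.5 CPM in CANDI470 and 0.249 CPM in PBS, a difference of 5.37. Synthase and arginase transcripts thus both stood near the floor in PBS and far above it in CANDI470, where Nos2 had 5.18 counts per count of Arg1 (5.13 to 5.23), against 0.667 (0.138 to 2.81) in PBS. Odc1, ornithine decarboxylase, had 578 CPM in CANDI470 and 41.8 CPM in PBS, a difference of 3.76. Slc7a1, the more widely expressed arginine importer, had 46.0 CPM in CANDI470 and 8.70 CPM in PBS, a difference of 2.28. Slc7a7, part of an exchanger that exports arginine, had 5.32 CPM in CANDI470 and 26.3 CPM in PBS, a difference of -2.11.

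Genes that supply citrulline and aspartate to Ass1 had a median difference of -1.14, with 1 higher and 4 lower of the 6 of 9 that reached 1 CPM. The pair of mitochondrial aspartate-glutamate carriers split, with Slc25a12 at 82.7 CPM in CANDI470 and 21.2 CPM in PBS (1.92) and Slc25a13 at 4.48 CPM in CANDI470 and 24.8 CPM in PBS (-2.23). Got2, which makes aspartate in mitochondria, had 24.3 CPM in CANDI470 and 58.7 CPM in PBS (-1.24), and Slc25a15, an ornithine carrier, had 4.08 CPM in CANDI470 and 10.4 CPM in PBS (-1.16, and -0.76 with a pseudocount of 5 CPM). The genes tied to citrulline synthesis in the liver urea cycle were near absent. Otc and Nags had 0 counts in both libraries, and Cps1 had 0 in CANDI470 and 1 in PBS.

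Among the other synthase isoforms and regulators of the synthases, the median difference was -1.06. Of the 7 of 10 reported here that reached 1 CPM, none was higher and 4 were lower, beside 25.7% and 23.6% of all genes. With library totals 5 were lower, beside 40.2% of all genes. With GC content and length trends removed 2 were lower, beside 21.6% of all genes. Nos1 had 0 counts in CANDI470 and 6 in PBS, and Nos3 had 0 counts in CANDI470 and 3 in PBS, where 3 counts correspond to 0.0927 CPM in CANDI470 and 0.0828 CPM in PBS. Nos2 was thus the only synthase isoform with counts in CANDI470, while in PBS it had 4 counts beside 6 of Nos1 and 3 of Nos3. Calm2, a gene for calmodulin, which synthases bind, had 104 CPM in CANDI470 and 451 CPM in PBS (-2.11). Calm3 encodes the same protein and had 121 CPM in CANDI470 and 254 CPM in PBS (-1.06, and -0.44 with GC content and length trends removed). Nostrin, a trafficking partner of the endothelial synthase, had 4.05 CPM in CANDI470 and 20.5 CPM in PBS (-2.09). Ddah2, of a family that clears methylated arginines that inhibit synthases, had 2.44 CPM in CANDI470 and 13.4 CPM in PBS (-2.06, and -0.99 with GC content and length trends removed).

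Genes for nitric oxide targets and for removing its products had a median difference of 2.03. Of the 7 of 10 that reached 1 CPM, 4 were higher and none lower. With library totals 4 were higher and 1 lower, beside 16.2% and 40.2% of all genes. Txnrd1, thioredoxin reductase, had 940 CPM in CANDI470 and 108 CPM in PBS (3.11), and Txn1, thioredoxin, which takes part in removing nitrosyl groups, had 532 CPM in CANDI470 and 129 CPM in PBS (2.03). Gsr, glutathione reductase, had 251 CPM in CANDI470 and 43.6 CPM in PBS (2.50). Pde5a, which breaks down cyclic GMP, had 25.8 CPM in CANDI470 and 0.690 CPM in PBS (3.99). The higher genes were only these 4. The other 3 that reached 1 CPM stayed within 2-fold, with Cyb5r3 at 0.87, Adh5 at -0.33 and Prkg1 at -0.52. With library totals Adh5 was the lower one. With GC content and length trends removed Cyb5r3 was higher and Prkg1 lower, and Prkg1 was also lower with a pseudocount of 0.1 CPM. The soluble guanylate cyclase, the main receptor of nitric oxide in many tissues, was barely detected, with Gucy1a1 at 0 counts in CANDI470 and 3 in PBS, Gucy1a2 at 0 in both, and Gucy1b1 at 18 counts in CANDI470 and 0 in PBS.

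Inducers of Nos2 and the factors they act through had a median difference of 1.91. Setting the genes at 0 counts in PBS to their bounds could not move it, since they already lay above it. Of 17 genes 12 were higher and 1 lower. With library totals 9 were higher and 2 lower, beside 16.2% and 40.2% of all genes. Il1b, an inflammatory cytokine, had 1080 CPM in CANDI470 and 11.2 CPM in PBS (6.47). Jak2, the kinase of the interferon gamma receptor among others, had 1144 CPM in CANDI470 and 25.9 CPM in PBS (5.41). Hif1a, a hypoxia-inducible factor that can act on Nos2, had 2603 CPM in CANDI470 and 74.2 CPM in PBS (5.11), and Irf1, an interferon-induced factor needed for Nos2 induction in mouse macrophages, had 797 CPM in CANDI470 and 56.0 CPM in PBS (3.81). In the other direction, Ifngr1, the ligand-binding chain of the interferon gamma receptor, had 24.7 CPM in CANDI470 and 215 CPM in PBS (-3.07). Ifnb1 and Ifng, named here after their values were seen because PBS had 0 counts of each, had 379 and 107 counts in CANDI470, at least 141-fold and 39.9-fold higher against a floor of 3 counts per library. The lower ends of their 95% exact intervals, which take in the counting error of both libraries, were 114-fold for Ifnb1 and 31.9-fold for Ifng.

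**Figure D5:**
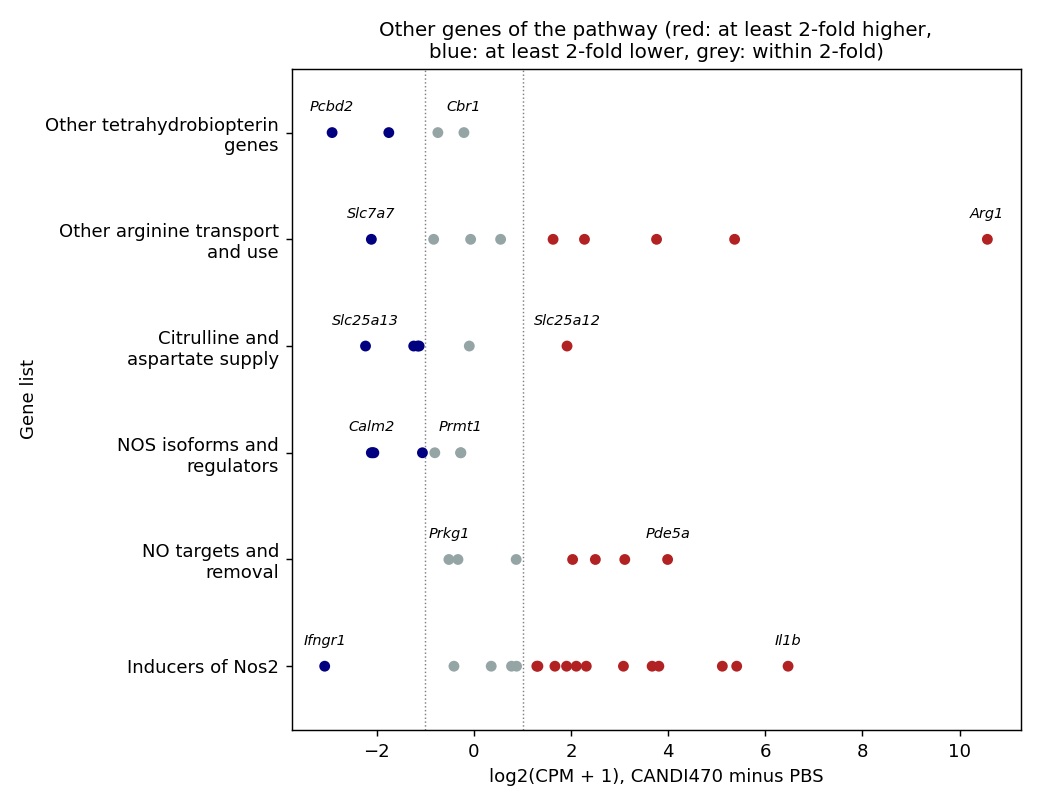
Difference in log2(CPM + 1), CANDI470 minus PBS, of the 50 other listed genes that reached 1 CPM, one row per list, with dotted lines at 2-fold and the lowest and highest gene of each list named. Red points (22 genes) are higher in CANDI470 by 2-fold or more, blue points (12 genes) lower by 2-fold or more and grey points (16 genes) within 2-fold.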

How the data were processed

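Bulk RNA-seq of mouse bone-marrow-derived macrophages was analysed in 1 CANDI470 and 1 PBS library. The authors deposited gene counts and log2 CPM values for each library. The build was mm10 per the submitters' processing notes, while for the aligner, counter, strand setting and annotation nothing is given in the sources used here. Start and end matched GENCODE M21 for 8 of the 8 members in the PBS table and for 0 in the CANDI470 table. Whether the CANDI470 table rests on mm10 was not tested. Deposited log2 values equalled log2(count × constant + 1) within 1e-06 for 12726 of 12726 genes in each library, which corresponds to library totals of 27415347 for CANDI470 and 31402916 for PBS. The count and log2 tables also hold columns for a second control and for the empty agent, 6 in all, which have no labelled sample here and were not used.

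Counts were joined by gene identifier. The 51084 shared identifiers held 99.4% of counts in CANDI470 and 99.5% in PBS, out of 41646905 and 28442450. TMM factors came from edgeR 4.0.16 in R 4.3.3 on genes that reached 1 CPM in a library, with a pseudocount of 1 CPM. Intervals (95%, scipy 1.17.1) were exact Poisson for CPM and exact conditional binomial for ratios. Reads copied by PCR can stem from 1 molecule, and the intervals and floors describe counting error only. The scaling and differences were tried on simulated counts with few changed genes, all well expressed, and a pseudocount of 0.1 CPM. That simulation does not cover genes near the floor or data in which many genes differ. Coordinates come from the PBS table. Alternatives were library totals, upper-quartile factors, size factors of DESeq2 1.42.0, the deposited log2 values, pseudocounts of 0.1 and 5 CPM, no filter, a filter of 5 CPM, protein-coding genes only, removal of GC content and length trends in 20 bins, thinned CANDI470 counts, and 2 added later.

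The members, lists and settings were chosen with earlier results of these data known. Named genes were all 8 members, of each list the 4 genes with the largest absolute difference plus the gene farthest the other way where past 2-fold, the 3 protein-coding genes nearest to Nos2, and Arg1 and Arg2. Genes named beyond these are those with few or 0 counts, Adh5, Cyb5r3 and Prkg1, all chosen after their values were seen. Marker lists are given by their sums. Another 2 listed genes are not reported here and are left out of the lists' counts and medians.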

Additional observations from a re-analysis of the deposited data

How the results depend on the processing

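No paired analysis was possible because each group had 1 labelled library, and for the same reason no replicate could be left out. Over 13 alternatives, 2 of them (totals centred on the gene of median difference, and genes of the same length in both tables) chosen after seeing the data, none of the 8 genes changed sign. The number of members at least 2-fold higher was 4 in each setting but one, genes of the same length in both tables, where Nos2 drops out and it was 3 of 7. The number lower was 3, or 4 with library totals (Asl at -1.38) and upper-quartile factors (Asl at -1.05). The members' median difference, 0.72 with TMM scaling, was 0.028 with library totals and 0.36 with upper-quartile factors, where the median of all genes was -0.69 and -0.38, and it turned to -0.71 among genes of the same length, where Nos2 does not enter. Upper-quartile factors put 20.2% of all genes higher and 31.7% lower. Differences ranged from 10.81 to 15.41 for Nos2 (12 settings), 8.81 to 10.18 for Slc7a2 and 5.73 to 9.42 for Ass1, with both ends set by the pseudocount. They ranged from 1.44 to 2.20 for Gch1, -2.01 to -1.10 for Pts, -3.35 to -2.08 for Spr, -2.53 to -1.63 for Qdpr and -1.38 to -0.19 for Asl, the last end with GC content and length trends removed. Depth limits the PBS values of Nos2 and Ass1, which rest on 4 and 11 counts.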
